A study of Rattus norvegicus with 5 samples.

Results

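Of the 32883 genes counted in nuclei of the rat ventral tegmental area (VTA), 8 were described here: *Pde3a*, *Kirrel3*, *Megf11*, *Stac*, *Ndst4*, *Colgalt2*, *Pdzd2* and *Fam163a*. They were chosen from a contrast in these same nuclei, as genes with fewer transcripts in GABA neurons with a *Glp1r* transcript than in GABA neurons without one. The 5 libraries came from 5 adult male Sprague-Dawley rats, 1 library per rat, with the tissue punches of both hemispheres combined. All rats belonged to 1 group, labelled as saline-treated and described by the study as drug naïve, so no treatment was compared. Nuclei from frozen tissue were sequenced with droplet single-nucleus RNA sequencing (snRNA-seq), in which each transcript molecule is counted once as a unique molecular identifier (UMI). The comparisons made were between types of nuclei within the same rats, and n is the number of rats.

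The glucagon-like peptide-1 receptor encoded by *Glp1r* couples to Gs and raises cyclic AMP. In the VTA, GABA neurons inhibit dopamine neurons and also project out of the midbrain. The GABA neurons of the ventral midbrain are of mixed developmental origin, and transcription factors still expressed in the adult tell them apart, among them the paired-box factor *Pax7*, the homeodomain factor *Meis2* and the zinc finger factors *Gata2* and *Gata3*. The 8 genes have unlike roles. *Pde3a* encodes a phosphodiesterase that breaks down cyclic AMP, *Kirrel3* an immunoglobulin superfamily adhesion molecule of synapses, *Megf11* a transmembrane protein with repeated EGF-like domains, *Stac* an adaptor protein that binds voltage-gated calcium channels, *Ndst4* an enzyme that deacetylates and sulfates the sugar chains of heparan sulfate, *Colgalt2* an enzyme that adds galactose to collagens, and *Pdzd2* a protein with several PDZ domains. *Fam163a* encodes a small membrane protein whose role is little known.

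The 250 bases before the transcription start are shown for *Pde3a*, *Pdzd2* and *Fam163a*, the 3 members with the largest differences between *Pax7*, *Meis2* GABA nuclei and other GABA nuclei, and for *Colgalt2*, the member that was higher with *Meis2* alone. Sequences were taken from RefSeq on the GRCr8 rat assembly and are written along the strand of the gene. RefSeq entries were found for 7 of the 8 members. Capitals mark TAAT or its reverse ATTA, the core bound by many homeodomain factors, and TGACAG or its reverse CTGTCA, the core bound by Meis factors.
Pde3a, chr4:175904026-175904275 (plus strand): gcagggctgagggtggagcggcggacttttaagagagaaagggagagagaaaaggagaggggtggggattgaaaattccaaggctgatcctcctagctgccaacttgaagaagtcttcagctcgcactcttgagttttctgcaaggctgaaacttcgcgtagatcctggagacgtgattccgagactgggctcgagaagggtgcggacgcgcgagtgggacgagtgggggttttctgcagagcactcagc
Pdzd2, chr2:63497479-63497728 (minus strand): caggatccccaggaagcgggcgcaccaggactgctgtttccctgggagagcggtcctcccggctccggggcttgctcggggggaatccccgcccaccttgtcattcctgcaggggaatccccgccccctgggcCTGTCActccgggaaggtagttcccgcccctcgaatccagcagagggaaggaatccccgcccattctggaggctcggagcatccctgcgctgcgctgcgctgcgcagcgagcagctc
Fam163a, chr13:70891317-70891566 (minus strand): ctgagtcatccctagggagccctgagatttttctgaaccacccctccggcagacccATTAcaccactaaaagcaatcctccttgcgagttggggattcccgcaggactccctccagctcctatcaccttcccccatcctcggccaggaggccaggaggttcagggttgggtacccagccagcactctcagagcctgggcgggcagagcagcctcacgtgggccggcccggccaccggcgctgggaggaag
Colgalt2, chr13:67073301-67073550 (plus strand): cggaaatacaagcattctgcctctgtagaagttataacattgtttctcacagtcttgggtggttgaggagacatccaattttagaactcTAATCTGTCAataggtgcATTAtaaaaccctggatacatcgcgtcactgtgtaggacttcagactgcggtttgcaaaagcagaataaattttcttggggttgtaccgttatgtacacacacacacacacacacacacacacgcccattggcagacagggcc
Neither core was found before *Pde3a*. A single TGACAG match lay before *Pdzd2* and a single TAAT match before *Fam163a*. *Colgalt2* had 2 TAAT matches and 1 TGACAG match, and a TAAT and a CTGTCA stood side by side there. Over all 33469 RefSeq windows of this length, 57% held a TAAT match and 15.8% a TGACAG match, counting both strands and overlapping letters. The matches describe the letters in these windows and show no binding.

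In all, 22084 barcodes passed the limits on UMIs, genes and mitochondrial transcripts, and 21016 nuclei were kept after marking doublets. The libraries held 10193355 to 88576210 UMIs, and the median nucleus held 1605.5 to 3526 UMIs. Rat 1 had the fewest passing barcodes, 1813, with 56 GABA-like and 4 dopaminergic-like nuclei. Of its 5218 barcodes with at least 1000 UMIs, 3121 failed the mitochondrial limit. The corresponding counts were 3514 of 13176, 18 of 2305, 51 of 5191 and 411 of 4445 in rats 2 to 5. Rat 3 stood apart in make-up, with 232 oligodendrocytes against 423 to 3241 in the other rats. Clusters were made without the 8 genes and without *Glp1r*, and named from cell type markers. The classes held 2491 GABA-like, 957 dopaminergic-like, 815 glutamatergic-like and 170 serotonergic-like neurons. Among the other nuclei were 8803 oligodendrocytes, 1051 astrocytes, 795 precursors of oligodendrocytes (OPCs), 599 microglia and 390 nuclei of vessels. GABA-like neurons had a mean *Gad1* level of 2.63 UMIs per 10000, against 0.209 in glutamatergic-like and 0.127 in dopaminergic-like neurons. A further 4945 nuclei with mixed or too few markers were left out of the classes, among them 1080 of the 1787 nuclei kept from rat 1. Free RNA made up an estimated 6.72% to 25.2% of UMIs in a nucleus, by rat.

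*Glp1r* was detected in 48 of the 2491 GABA-like nuclei, with 2 to 21 per rat. Their median depth was 9378.5 UMIs, against 5463 in the GABA-like nuclei without it. The following levels repeat, in the GABA-like nuclei classed here, the contrast that chose the members, and were not tested. With nuclei pooled, *Pde3a* was at 0.369 UMIs per 10000 in nuclei with *Glp1r* and 3.87 in nuclei without it. *Fam163a* was at 0.184 against 1.57, and *Pdzd2* at 1.22 against 5.21. The corresponding levels were 0.115 and 1.07 for *Kirrel3*, 0.115 and 0.830 for *Megf11*, 0.161 and 0.721 for *Stac*, and 0.207 and 0.648 for *Colgalt2*. In nuclei with *Glp1r* these 4 rested on 5, 5, 7 and 9 UMIs, and *Fam163a* on 8. Without the 1 nucleus with most UMIs of the gene, the 4 were at 0.0475, 0.0703, 0.0475 and 0.142. *Pde3a*, *Kirrel3*, *Megf11*, *Stac* and *Pdzd2* were lower with *Glp1r* in 5 of 5 rats, and *Colgalt2* and *Fam163a* in 4 of 5. Rats 1 to 5 had 2, 21, 4, 9 and 12 nuclei with *Glp1r*, and a rat with few nuclei and no UMI of the gene counted as lower. These counts of rats repeat the contrast that chose the members and are no support for it.

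*Ndst4* went against this description once nuclei were pooled, with 2.28 UMIs per 10000 in nuclei with *Glp1r* and 2.11 without. It was lower with *Glp1r* in 3 of 5 rats, on the same few nuclei per rat. Its 99 UMIs in nuclei with *Glp1r* came from 12 nuclei, and 24 of them from 1 nucleus of rat 4. Without that nucleus the level was 1.78.

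The nuclei with *Glp1r* were not spread evenly over the GABA-like nuclei. When the neurons were clustered again, 35 of the 48 lay in 1 sub-cluster of 942 nuclei (sub-cluster 0), which held 72.9% of nuclei with *Glp1r* and 37.1% of the others. Another 9 lay in sub-cluster 19 (18.8% of nuclei with *Glp1r* and 2.74% of the others), where both *Pax7* and *Meis2* were present, at 2.0 and 14.9 UMIs per 10000. None lay in sub-clusters 6 and 10, the pair of sub-clusters with *Pax7* and little *Meis2*. Likewise, 0 of the 48 nuclei had *Pax7* without *Meis2*, against 271 of the 2443 nuclei without *Glp1r* (11.1%). Within sub-cluster 0, *Pde3a* was at 0.378 UMIs per 10000 with *Glp1r* (11 UMIs in the 35 nuclei) and 0.461 without, *Pdzd2* at 1.03 (30 UMIs) and 1.05, and *Ndst4* at 2.48 (72 UMIs) and 1.35. The other members rested on 1 to 5 UMIs in the nuclei with *Glp1r*, at 0.0344 with and 0.495 without it for *Kirrel3* (1 UMI), 0.138 and 0.685 for *Megf11* (4 UMIs), 0.0688 and 0.379 for *Stac* (2 UMIs), 0.172 and 0.647 for *Colgalt2* (5 UMIs) and 0.103 and 0.419 for *Fam163a* (3 UMIs). These pooled values repeat the contrast that chose the members within 1 sub-cluster, with no test.

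**Figure D1:**
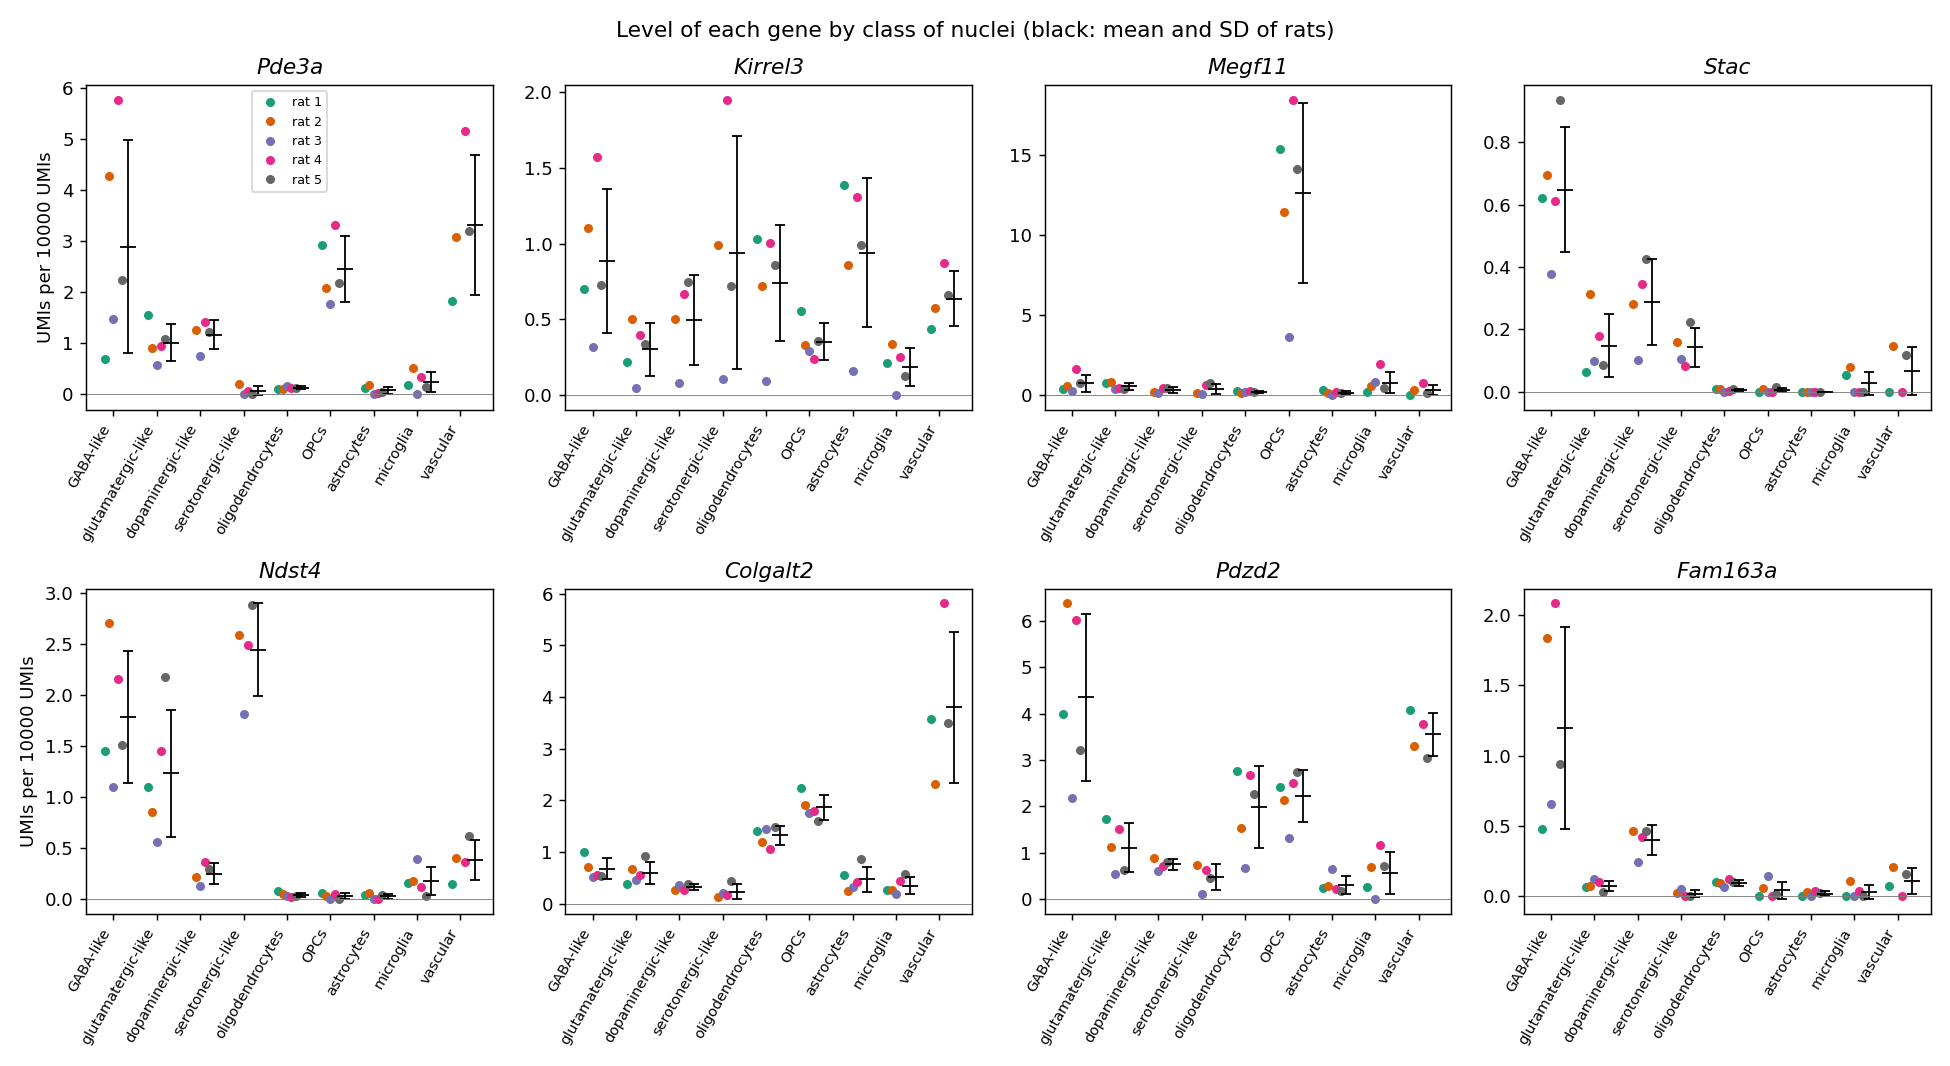
Level of each of the 8 genes, in UMIs per 10000 UMIs, in each class of nuclei, with 1 point per rat and a black bar for the mean and SD. *Megf11* stood highest in OPCs and *Stac* in GABA-like neurons, while *Colgalt2* was higher in vascular nuclei, OPCs and oligodendrocytes than in any neuron class.

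The 8 genes were held by different classes. *Fam163a* and *Stac* were highest in GABA-like neurons, and *Ndst4* in serotonergic-like and GABA-like neurons. *Pde3a* and *Pdzd2* were shared by GABA-like neurons, OPCs and vascular nuclei, and *Pdzd2* also by oligodendrocytes. *Megf11* belonged mostly to OPCs, *Colgalt2* to vascular and oligodendrocyte lineage nuclei, and *Kirrel3* was spread over neurons and glia. For a difference between neighbouring classes in the order of mean levels, signs were flipped over the rats in an exact permutation test (two-sided), which could not go below p = 0.0625 with 5 rats or 0.125 with 4, so the number of rats with the same direction is given. Where a class rested on fewer than 10 nuclei in a rat, that rat was left out.

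*Fam163a* was at 0.476, 1.84, 0.653, 2.08 and 0.939 UMIs per 10000 in the GABA-like neurons of rats 1 to 5 (1.20 ± 0.720, SD, n = 5). Dopaminergic-like neurons followed at a mean of 0.398, and glutamatergic-like neurons had 0.0763. GABA-like neurons held 63.3% of the *Fam163a* UMIs of all nuclei kept, left out nuclei included, and 18.7% of all UMIs. Shares below are over the same nuclei. Outside neurons *Fam163a* was at 0.109 in vascular nuclei and 0.0965 in oligodendrocytes, the latter above glutamatergic-like neurons in 4 of 5 rats (exact p = 0.375).

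*Stac* was at 0.620, 0.695, 0.378, 0.611 and 0.936 UMIs per 10000 in GABA-like neurons (0.648 ± 0.20, SD, n = 5) and at a mean of 0.288 in dopaminergic-like, 0.147 in glutamatergic-like and 0.142 in serotonergic-like neurons. The level in GABA-like neurons was above that in dopaminergic-like neurons in 4 of 4 rats. In glia it was near or at the limit of detection. Means were 0.00535 in oligodendrocytes and 0.00481 in OPCs, and 0 of 1051 astrocytes had a UMI, which allows up to 0.285% of astrocytes with a UMI at their median depth of 3333 UMIs and sets no limit on how many express the gene. Against a floor of 3 counts over all astrocytes, *Stac* was at least 98.2-fold higher in GABA-like, 41.9-fold higher in dopaminergic-like and 27.9-fold higher in glutamatergic-like neurons. Floors and limits cover counting error only.

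*Ndst4* was highest in serotonergic-like neurons, at 2.45 ± 0.455 UMIs per 10000 (SD, n = 4), then in GABA-like neurons at 1.79 ± 0.646 (n = 5) and glutamatergic-like neurons at 1.23 ± 0.626 (n = 5). The serotonergic-like level was above the GABA-like level in 3 of 4 rats, a difference within the spread (exact p = 0.25). Dopaminergic-like neurons had 0.249, and oligodendrocytes, OPCs and astrocytes had 0.0388 or less.

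*Pde3a* was at 0.682, 4.27, 1.47, 5.77 and 2.22 UMIs per 10000 in the GABA-like neurons of rats 1 to 5 (2.88 ± 2.09, SD, n = 5). Vascular nuclei had 3.31 ± 1.38 (n = 4) and OPCs 2.44 ± 0.646 (n = 5). The order of these 3 was not settled, since vascular nuclei were above GABA-like neurons in 2 of 4 rats (exact p = 1) and GABA-like neurons above OPCs in 3 of 5 (exact p = 0.688). Dopaminergic-like neurons had 1.15 and glutamatergic-like neurons 1.0, while oligodendrocytes had 0.114 and astrocytes 0.0635. The profile of free RNA itself, which is only a part of the UMIs in a nucleus, held *Pde3a* at 0.166 to 0.586, by rat.

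*Pdzd2* was at 3.99, 6.38, 2.19, 6.01 and 3.21 UMIs per 10000 in GABA-like neurons (4.36 ± 1.80, SD, n = 5). Vascular nuclei had 3.55 ± 0.470 (n = 4), OPCs 2.22 ± 0.554 and oligodendrocytes 1.98 ± 0.880 (n = 5 each). The other neurons were lower, at 1.10 in glutamatergic-like and 0.749 in dopaminergic-like neurons. GABA-like neurons held 40.1% of its UMIs and oligodendrocytes 34.1%.

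*Megf11* was at 15.4, 11.4, 3.64, 18.5 and 14.2 UMIs per 10000 in OPCs (12.6 ± 5.63, SD, n = 5), with rat 3 lowest. Every rat's OPCs were above all its other classes with at least 10 nuclei, the next being microglia at a mean of 0.764 and GABA-like neurons at 0.703. A UMI was seen in 85.9% of OPCs, with a median depth of 3418 UMIs, and in 3.90% of oligodendrocytes, with a median depth of 2905. OPCs held 56.7% of *Megf11* UMIs and 3.68% of all UMIs.

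*Colgalt2* was at 3.80 ± 1.46 UMIs per 10000 in vascular nuclei (SD, n = 4), 1.86 ± 0.238 in OPCs and 1.32 ± 0.179 in oligodendrocytes (n = 5 each), and each of these stood above the next in every rat with both. GABA-like neurons had 0.675 ± 0.203, below oligodendrocytes in 5 of 5 rats (exact p = 0.0625, the smallest possible). Oligodendrocytes held 50.6% of its UMIs.

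*Kirrel3* showed no class far above the rest. Means were 0.942 ± 0.489 UMIs per 10000 in astrocytes, 0.885 ± 0.475 in GABA-like neurons and 0.743 ± 0.383 in oligodendrocytes (SD, n = 5 each). The SD of each of these means covered the others, and rat 3 was lowest in all 3 classes. Serotonergic-like neurons had 0.942 ± 0.768 (n = 4). Dopaminergic-like neurons had 0.498, OPCs 0.354 and glutamatergic-like neurons 0.302.

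UMIs were then summed per rat and class, nuclei with *Glp1r* left out, and classes compared with edgeR's quasi-likelihood test with the rat as a block, called at a Benjamini-Hochberg adjusted p under 0.05 over 12315 genes. The choice of members favours genes present in GABA neurons without *Glp1r*, so nothing is read from how many stood above another class. Against dopaminergic-like neurons, 8 of 8 members were higher in GABA-like neurons, where 8.46% of all genes were called higher and 8.77% lower, and 0 members were lower. The log2 fold changes ran from 0.85 for *Kirrel3* and 1.02 for *Colgalt2* to 2.44 for *Pdzd2* and 2.87 for *Ndst4*, each with 4 of 4 rats higher. *Kirrel3* lost its call without rat 2 (adjusted p = 0.0518) and without rat 4 (adjusted p = 0.0536). Without the rat block 4 of the 8 were called.

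Against glutamatergic-like neurons, 5 of 8 were higher in GABA-like neurons and 0 lower, beside 2.96% and 2.61% of all genes. *Fam163a* differed most, with a log2 fold change of 4.26 ± 0.28 (SE, edgeR adjusted p = 6.8e-14, higher in 5 of 5 rats). *Pdzd2* followed at 2.11, *Stac* at 1.92, *Pde3a* at 1.66 and *Kirrel3* at 1.53. *Ndst4* (0.63, adjusted p = 0.104), *Megf11* (0.44, adjusted p = 0.668) and *Colgalt2* (0.10, adjusted p = 0.963) did not pass. *Megf11* passed without rat 2 (1.03, adjusted p = 0.0489) and *Ndst4* without rat 5 (0.99, adjusted p = 0.00975).

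The mean of the GABA-like, glutamatergic-like and dopaminergic-like neurons was also set against each glial class. Against oligodendrocytes, 5 of 8 members were higher in neurons, where 36.6% of all genes were, and 3 of 8 were lower, where 38.8% were. *Stac* (5.49), *Ndst4* (4.39), *Pde3a* (3.70), *Megf11* (1.47) and *Fam163a* (1.46) were higher on the log2 scale. *Colgalt2* (-1.54, lower in 5 of 5 rats), *Kirrel3* (-0.68) and *Pdzd2* (-0.58) were lower. GABA-like neurons alone had a mean above that of oligodendrocytes for *Pdzd2* (4.36 and 1.98), while for *Kirrel3* they were above in 3 of 5 rats (exact p = 0.438). GABA-like neurons were not fitted alone against glia. The call of *Pdzd2* was lost without rat 5 (adjusted p = 0.0833).

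Against OPCs, 4 of 8 members were higher in neurons (26.1% of all genes) and 4 of 8 lower (23.3%). *Megf11* was lower by the widest margin, at -4.70 on the log2 scale, followed by *Colgalt2* at -1.85, *Pde3a* at -0.72 and *Pdzd2* at -0.53. GABA-like neurons alone had a mean above that of OPCs for *Pdzd2* (4.36 and 2.22), while for *Pde3a* their order was not settled, as given above. DESeq2 called the first 2 of these and not *Pde3a* (adjusted p = 0.0668) or *Pdzd2* (adjusted p = 0.0531). *Stac* (5.58), *Ndst4* (4.81), *Fam163a* (4.07) and *Kirrel3* (0.84) were higher. *Kirrel3* lost its call without rat 4 (adjusted p = 0.0935) and *Pdzd2* without rat 5 (adjusted p = 0.271). Against astrocytes, 6 of 8 were higher (31.6% of all genes) and 1 of 8 lower (30.6%). The lower one was *Kirrel3* at -0.81, lower in 5 of 5 rats, and *Colgalt2* did not pass (0.12, adjusted p = 0.645) except without rat 5 (0.51, adjusted p = 0.0492). For *Kirrel3* the mean of GABA-like neurons alone was 0.885, near the 0.942 of astrocytes. The higher ones were *Stac*, *Ndst4* (4.49), *Pde3a* (3.92), *Fam163a* (3.64), *Pdzd2* (2.74) and *Megf11* (1.84).

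**Figure D2:**
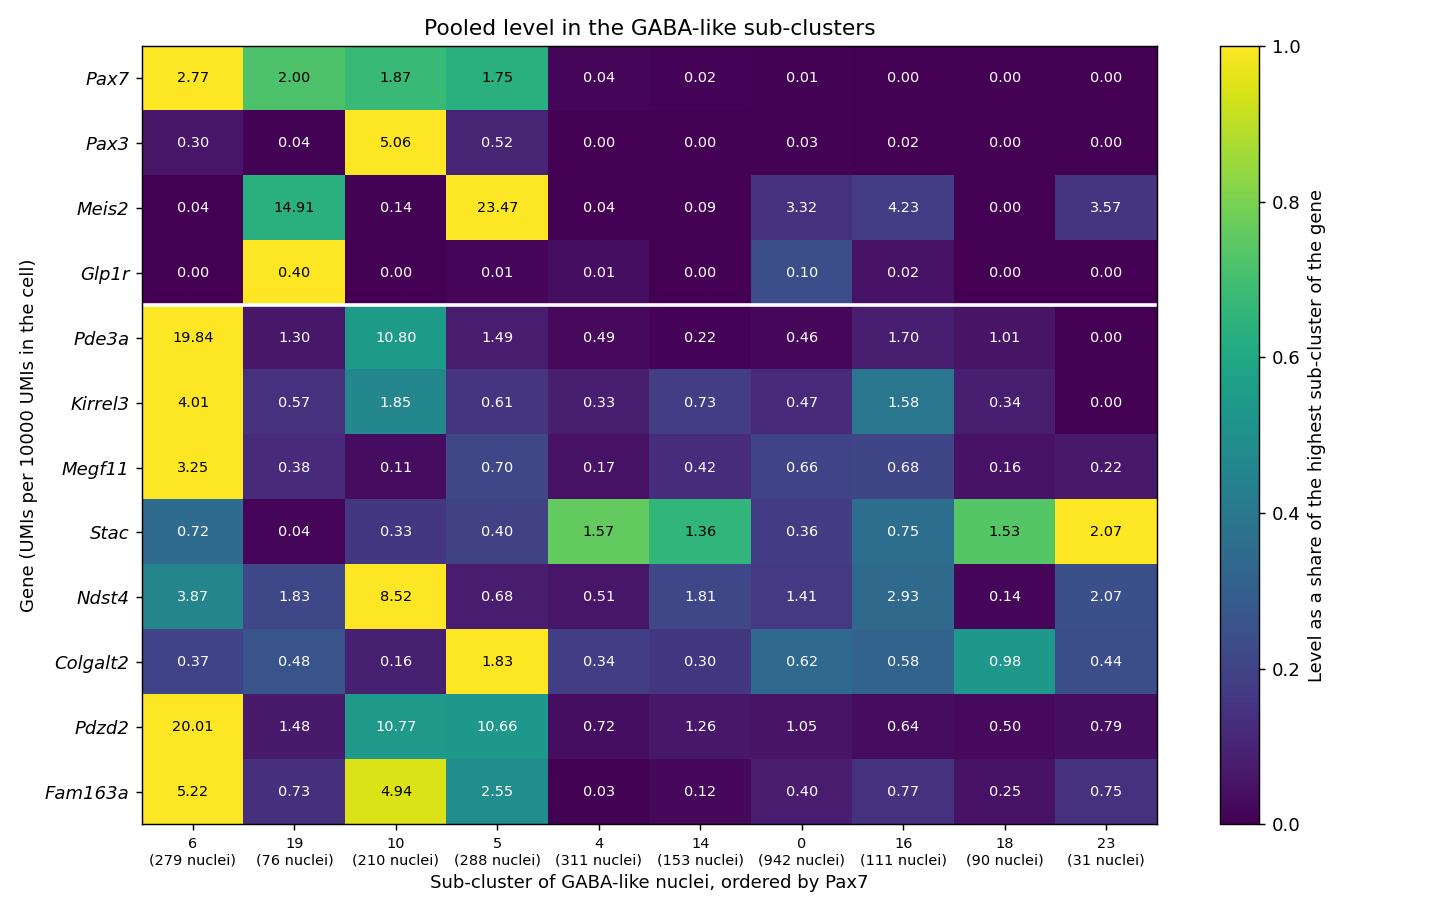
Pooled level of each of the 8 genes, with *Pax7*, *Meis2* and *Glp1r*, in the sub-clusters of GABA-like neurons, with *Pax3* also shown. Each column is 1 sub-cluster, the printed value is the level in UMIs per 10000 and the colour is that level as a share of the gene's highest sub-cluster. With nuclei pooled, *Pde3a*, *Pdzd2* and *Fam163a* were highest in sub-cluster 6, which holds *Pax7* with almost no *Meis2*. For *Fam163a* the order of sub-clusters 6 and 10 differed by rat.

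Within the GABA-like neurons the members were uneven. Values in sub-clusters are descriptions, since the sub-clusters were drawn from the same nuclei. Sub-cluster 6, with 279 nuclei, had 2.77 UMIs of *Pax7* and 0.04 of *Meis2* per 10000. Its leading gene was *Sox6*, at 39.7 with doublets kept. In the same nuclei the GABA genes *Gad1*, *Gad2* and *Slc32a1* were at 1.40, 1.39 and 0.707. In the profile of free RNA itself, these 3 genes were at 0.630 to 2.37, 1.55 to 3.48 and 1.03 to 7.46, by rat. Free RNA was an estimated 6.72% to 25.2% of the UMIs in a nucleus, so its levels and those in nuclei are not like measures. In sub-cluster 6 *Pde3a* stood at 19.8 and was detected in 92.1% of nuclei. By rat, *Pde3a* was at 21.7, 8.14, 21.4 and 16.0 in rats 2 to 5, and *Pdzd2* at 21.7, 9.06, 20.5 and 18.5. Rat 3, lowest of the 4, still held both transcripts above its own GABA-like level here, with *Pax7* at 0.154 against 2.49 to 3.25 in rats 2, 4 and 5. *Fam163a* was at 5.22, *Kirrel3* at 4.01 and *Megf11* at 3.25 with nuclei pooled.

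Sub-cluster 10, with 210 nuclei, most of them from rats 2 and 3, had *Pax7* at 1.87 and *Pax3*, a paired-box factor closely related to *Pax7*, at 5.06. *Ndst4* was at 8.52 there, *Pde3a* and *Pdzd2* at 10.8 each and *Fam163a* at 4.94, but *Megf11* at 0.11. *Ndst4* was at 3.87 in sub-cluster 6, with nuclei of other rats in the pool. Within rat 2 it was at 9.0 in sub-cluster 10 and 7.15 in sub-cluster 6, and within rat 3 at 4.65 and 1.08. *Megf11* was at 0.112 and 1.58 in rat 2 and at 0.0637 and 0.768 in rat 3. *Fam163a* was at 5.59 and 3.86 in rat 2 and at 2.29 and 3.07 in rat 3. Where *Meis2* and *Pax7* occurred together, the sub-clusters differed. In sub-cluster 5 (288 nuclei, *Meis2* 23.5 and *Pax7* 1.75), *Pdzd2* was at 10.7, *Fam163a* at 2.55, *Colgalt2* at 1.83 and *Pde3a* at 1.49. In sub-cluster 19 (76 nuclei), *Pdzd2* was at 1.48, *Fam163a* at 0.733, *Colgalt2* at 0.476 and *Pde3a* at 1.30. Sub-cluster 0, which held most nuclei with *Glp1r*, had *Pde3a* at 0.456 and *Pdzd2* at 1.05. *Stac* was highest elsewhere, at 1.57 in sub-cluster 4, 1.53 in sub-cluster 18, 1.36 in sub-cluster 14 and 2.07 in sub-cluster 23. The last held 31 nuclei, of which 28 came from rat 5.

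To ask whether the members followed the *Pax7*, *Meis2* GABA nuclei, GABA-like nuclei without *Glp1r* were split by *Pax7* and *Meis2*, which were no part of the contrast that chose the members. A nucleus with at least 1 *Pax7* or at least 2 *Meis2* UMIs was put in the positive group (795 nuclei, 10, 386, 68, 155 and 176 in rats 1 to 5), and a nucleus with neither in the reference group (1565 nuclei, 44, 423, 620, 216 and 262). The remaining 83 nuclei, with 1 *Meis2* UMI and no *Pax7*, were in neither group, and held *Pde3a* at a pooled 2.08 and *Pdzd2* at 3.27 UMIs per 10000. Nuclei with *Glp1r* were not seen among those with *Pax7* without *Meis2*, as given above, so the choice of members and this split were not unrelated. Positive nuclei were deeper, with a median of 6836 UMIs against 4449. The summed level of 6 oligodendrocyte markers was 8.10 to 29.1 per 10000 in positive and 7.20 to 26.1 in reference nuclei, against 191 to 297 in oligodendrocytes. The summed level of 5 OPC markers was 0.279 to 0.607 and 0.295 to 0.925, with *Neu4* at 0 in both, against 24.3 to 46.5 in OPCs. The summed level of 6 astrocyte markers was higher in positive nuclei, at a mean of 2.63 (0.505 to 5.13) against 1.22 (0.240 to 2.08), and was 37.5 to 67.2 in astrocytes. The part of depth, of free RNA and of astrocyte transcripts in the differences was not tested beyond the alternatives given.

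Of the 8 members, 6 were higher in the positive nuclei and 0 lower, where 4.48% of the 11784 genes tested were called higher and 3.56% lower. The median log2 fold change of the 8 was 0.90, and that of all genes tested was -0.03. Of the 48 nuclei with *Glp1r*, 75% had neither factor, against 64.1% of the GABA-like nuclei without it. The choice of members thus bears on this count and this median, and nothing is read from them. *Pdzd2* was at 16.1, 10.7, 3.81, 12.1 and 5.71 UMIs per 10000 in the positive nuclei of rats 1 to 5 and at 1.56, 2.64, 2.01, 2.14 and 1.89 in reference nuclei. The log2 fold change was 2.05 ± 0.20 (SE, edgeR adjusted p = 1.9e-08, higher in 5 of 5 rats). The groups did not overlap, with the value of rat 1 resting on 10 positive nuclei. How many of all genes tested were separated like this was not counted.

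*Fam163a* was at 1.22, 3.08, 0.162, 3.92 and 1.98 in positive and 0.343, 0.788, 0.715, 0.959 and 0.368 in reference nuclei, higher in 4 of 5 rats. Its log2 fold change was 1.88 ± 0.22 (SE, adjusted p = 3.9e-07). *Pde3a* was at 2.07, 6.93, 1.30, 11.3 and 4.11 in positive and 0.423, 1.97, 1.49, 2.39 and 1.27 in reference nuclei, with a log2 fold change of 1.69 ± 0.21 (SE, adjusted p = 1e-06, 4 of 5 rats). For both genes the rat out of step was rat 3, whose positive nuclei were lower than its reference nuclei. *Pax7* was seen in 8 of its 68 positive nuclei. The counts were 2 of 10, 250 of 386, 118 of 155 and 77 of 176 in rats 1, 2, 4 and 5.

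*Kirrel3* was at 0.610, 1.38, 0.405, 2.71 and 1.01 in positive and 0.740, 0.920, 0.325, 0.879 and 0.620 in reference nuclei, higher in 4 of 5 rats (log2 fold change 0.93 ± 0.17, adjusted p = 0.00027). *Megf11* was at 0.366, 0.71, 0.486, 2.39 and 1.02 against 0.396, 0.407, 0.213, 1.22 and 0.610, also higher in 4 of 5 (0.87 ± 0.13, adjusted p = 3.1e-05). Both overlapped between the groups, and rat 1, with 10 positive nuclei, was the one that went the other way. *Colgalt2* was at 0.976, 1.06, 1.13, 0.739 and 0.514 against 1.08, 0.435, 0.399, 0.485 and 0.571, higher in 3 of 5 rats (0.69 ± 0.18, adjusted p = 0.0111), and its call was lost without rat 2 (adjusted p = 0.496).

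*Ndst4* and *Stac* did not pass. *Ndst4* was at 2.81, 3.90, 0.567, 1.77 and 2.27 in positive and 1.24, 1.81, 1.17, 2.14 and 1.16 in reference nuclei (log2 fold change 0.56 ± 0.19, adjusted p = 0.0648, higher in 3 of 5 rats). It passed without rat 3 (0.72, adjusted p = 0.00945), without rat 4 (0.81, adjusted p = 0.00258) and with no filter on low counts (0.54, adjusted p = 0.00554). *Stac* was at 0.488, 0.472, 0.486, 0.687 and 0.748 against 0.687, 0.950, 0.371, 0.580 and 1.09 (-0.42 ± 0.17, adjusted p = 0.143, higher in 2 of 5 rats), and was called lower without rat 4 (-0.72, adjusted p = 0.00377).

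These calls depended on the model. DESeq2 called 3 members, *Pdzd2*, *Pde3a* and *Megf11*. Without the rat block 1 member was called, *Pdzd2* (adjusted p = 0.0109), with fold changes of the other 5 between 0.57 and 1.80. When every nucleus was thinned to 1000 UMIs before the split, *Pdzd2* alone was called (0.78, adjusted p = 0.000185), *Pde3a* was at 0.02, and *Kirrel3* (-0.13), *Megf11* (-0.33) and *Ndst4* (-0.49) changed sign with no call. The split was read again from the thinned counts, which left 199, 36, 68 and 75 positive nuclei in rats 2 to 5.

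**Figure D3:**
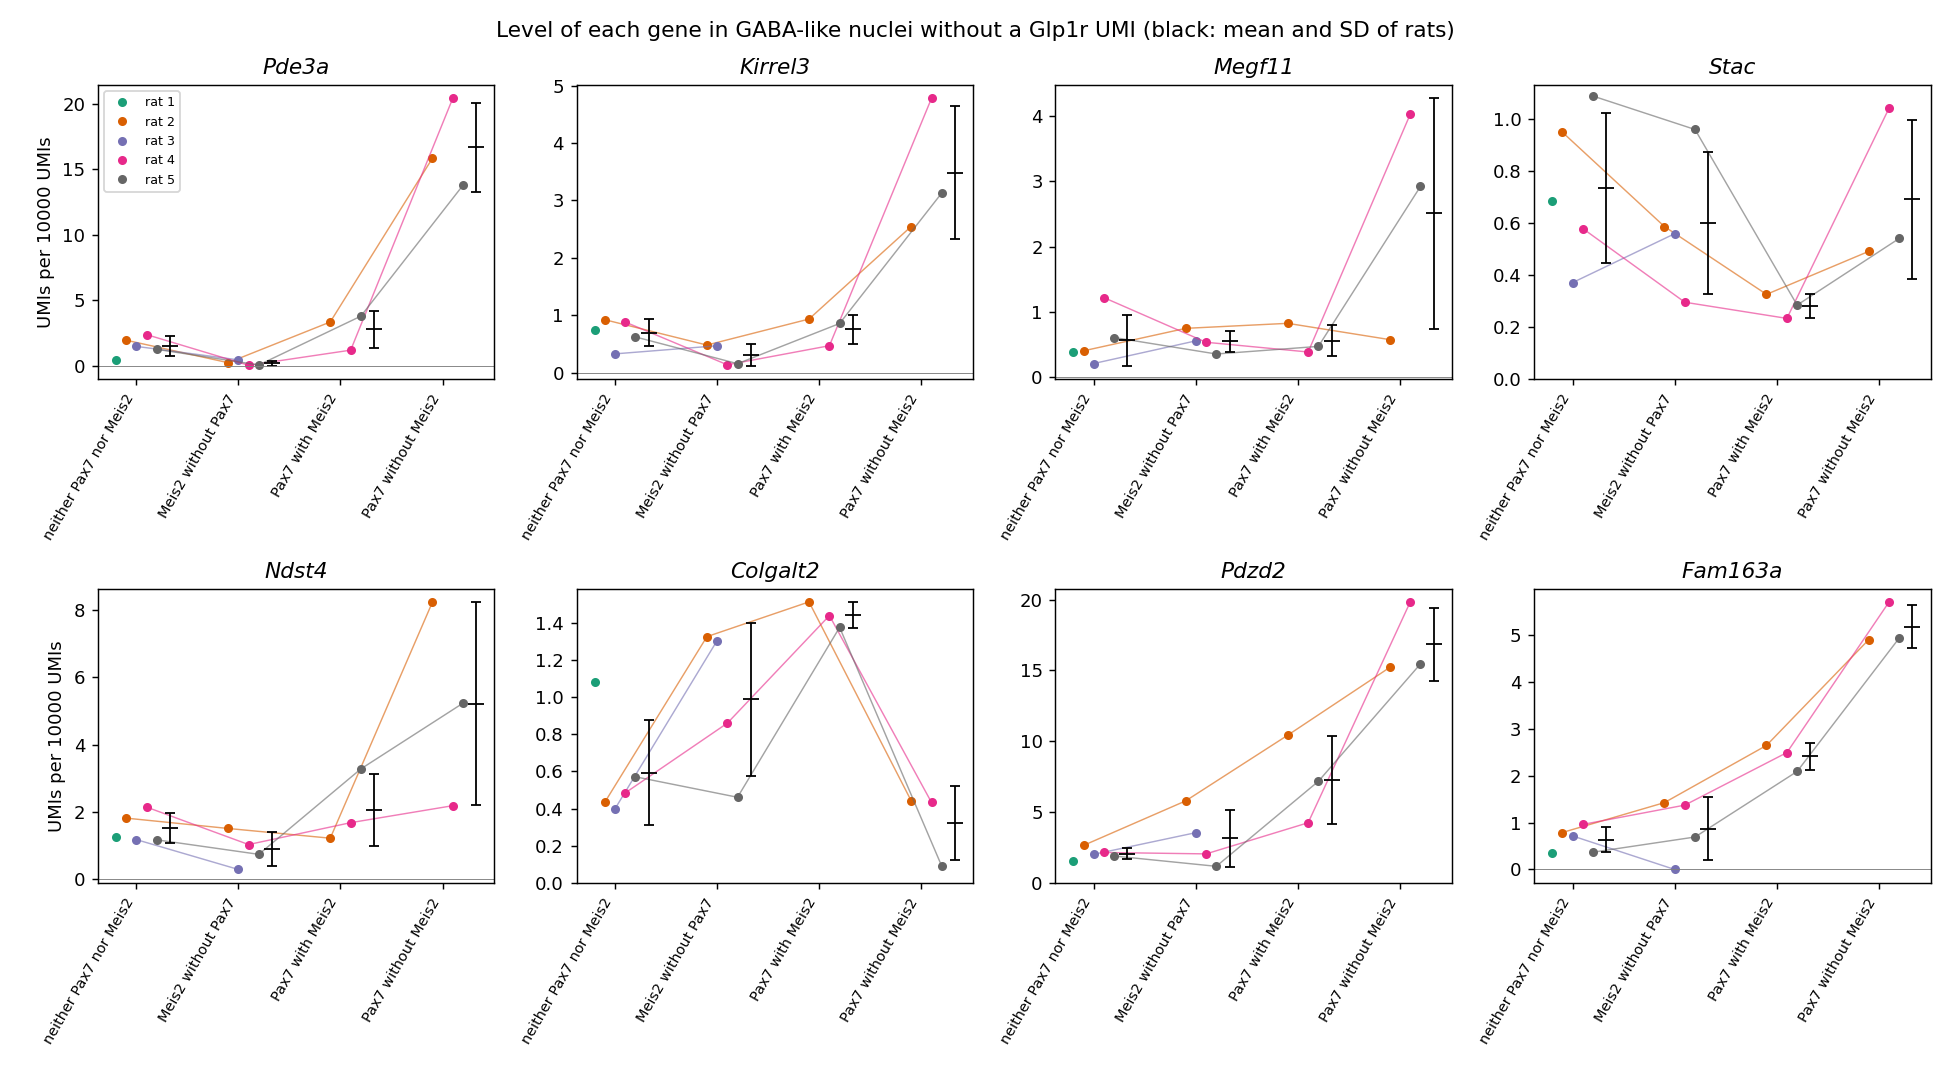
Level of each of the 8 genes, in UMIs per 10000 UMIs, in GABA-like nuclei without *Glp1r* split by *Pax7* and *Meis2*, with 1 point per rat, lines joining a rat's points and a black bar for the mean and SD. *Pde3a* and *Kirrel3* were high in nuclei with *Pax7* without *Meis2* and lowest in nuclei with *Meis2* without *Pax7*, while *Colgalt2* was highest where both were present.

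The positive group joins kinds of nuclei that differed in these genes. Nuclei with *Pax7* without *Meis2* were set against nuclei with neither factor, a split chosen after the data were seen. Of the 271 such nuclei, 126, 89 and 50 came from rats 2, 4 and 5, and rats 1 and 3 had too few to use. *Gad1* was at 3.82, 0.758 and 1.95 UMIs per 10000 in them and at 3.01, 1.97 and 3.14 in the reference nuclei of the same rats. *Gad2* was at 2.53, 1.34 and 1.95 against 4.08, 3.22 and 4.09, lower in each of the 3 rats. Since 0 of the 48 nuclei with *Glp1r* had *Pax7* without *Meis2*, the choice of members favoured genes high in this kind of nucleus. Here 6 of 8 members were higher and 0 lower (4.68% and 4.12% of all genes). *Pde3a* was at 15.8, 20.4 and 13.8, with a log2 fold change of 3.29 ± 0.15 (SE, adjusted p = 2.3e-06). *Fam163a* was at 4.89, 5.70 and 4.93 (3.04 ± 0.21, adjusted p = 1.7e-05), and *Pdzd2* at 15.2, 19.8 and 15.5 (3.03 ± 0.18, adjusted p = 9.8e-06). For these 3 genes, and for *Kirrel3* and *Ndst4* given next, each of the 3 rats was above every rat's reference value, for *Ndst4* only narrowly in rat 4. The share of all genes separated in this way was not counted.

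*Kirrel3* was at 2.54, 4.78 and 3.13 in the same nuclei (log2 fold change 2.18 ± 0.20, adjusted p = 8.4e-05) and *Megf11* at 0.578, 4.02 and 2.92 (1.67 ± 0.26, adjusted p = 0.00242). *Ndst4* was at 8.24, 2.18 and 5.23 (1.61 ± 0.34, adjusted p = 0.0145), and its call was lost without rat 5 (adjusted p = 0.204). Rat 2 was thus lowest for *Megf11* and highest for *Ndst4*. It was also highest for *Pax3*, at 3.61 against 0.176 in rat 4 and 0.842 in rat 5. *Stac* (-0.17, adjusted p = 0.855) and *Colgalt2* (-0.30, adjusted p = 0.694) did not pass, although *Stac* was called lower without rat 4 (-0.90, adjusted p = 0.0109).

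The share of nuclei with a UMI gave the same picture. *Pde3a* was detected in 89.3% of nuclei with *Pax7* without *Meis2* and in 20.4% of nuclei with neither, *Pdzd2* in 88.2% and 32.8%, *Fam163a* in 79.3% and 13.3%, and *Kirrel3* in 77.5% and 21.9%. The median depth was 7758 and 4449 UMIs, which also raises the first share of each pair. These nuclei were 11.1% of GABA-like nuclei without *Glp1r* and held 14.6% of their UMIs, but 64.3% of *Pde3a*, 47.9% of *Fam163a*, 47.4% of *Pdzd2*, 46.3% of *Kirrel3*, 39.4% of *Ndst4* and 37.6% of *Megf11* UMIs. For *Stac* the share was 13.9% and for *Colgalt2* 8.56%.

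Nuclei with *Meis2* without *Pax7* gave other calls. There were 340, of which 136, 60, 37 and 99 came from rats 2 to 5, and 1 of 8 members was higher and 3 of 8 lower than in nuclei with neither (2.02% and 1.48% of all genes). *Pde3a* was at 0.250, 0.466, 0.0538 and 0.0769 UMIs per 10000 (log2 fold change -3.44 ± 0.25, adjusted p = 3.9e-12, lower in 4 of 4 rats). *Kirrel3* was at 0.478, 0.466, 0.134 and 0.154 (-1.41 ± 0.25, adjusted p = 0.00024) and *Ndst4* at 1.5, 0.28, 1.02 and 0.730 (-0.71 ± 0.17, adjusted p = 0.0103). *Colgalt2* was the one that was higher, at 1.33, 1.31, 0.860 and 0.461 (0.89 ± 0.22, adjusted p = 0.0119, 3 of 4 rats). *Pdzd2* (0.28, adjusted p = 0.741), *Fam163a* (0.56, adjusted p = 0.236), *Megf11* (-0.12, adjusted p = 0.96) and *Stac* (-0.45, adjusted p = 0.297) did not pass. The reference also held nuclei of sub-clusters 6 and 10 without a UMI of either factor. *Pax7* was detected in 64.2% and 41.9% of these sub-clusters. Reference nuclei had *Pde3a* at a pooled 1.77. It was at 1.70 in sub-cluster 16, 1.01 in sub-cluster 18 and 0.490 or less in sub-clusters 0, 4, 14 and 23. The part of such nuclei in the lower calls was not tested.

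The 2 kinds of nuclei were also compared directly, again chosen after the data were seen, with 5 of 8 members higher where *Pax7* occurred without *Meis2* and 1 of 8 lower (2.71% and 2.32% of all genes). *Pde3a* was higher by 6.99 on the log2 scale, *Kirrel3* by 3.71, *Pdzd2* by 2.89, *Fam163a* by 2.31 and *Ndst4* by 2.29. *Colgalt2* was lower (-1.35, adjusted p = 0.0162), a call lost without rat 2 (adjusted p = 0.0829). *Megf11* did not pass (1.89, adjusted p = 0.128) and passed without rat 2 at 3.08. *Stac* showed no call (0.23). The choice of members bears on this comparison in the same way.

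With both factors present (184 nuclei, 124, 29 and 27 in rats 2, 4 and 5), 3 of 8 members were higher and 1 of 8 lower than in nuclei with neither (5.98% and 5.06% of all genes). *Fam163a* was at 2.64, 2.49 and 2.09 UMIs per 10000 (log2 fold change 1.84 ± 0.17, adjusted p = 2.6e-08), *Pdzd2* at 10.4, 4.24 and 7.17 (1.71 ± 0.15, adjusted p = 1.5e-08) and *Colgalt2* at 1.51, 1.44 and 1.38 (1.64 ± 0.17, adjusted p = 2e-07). *Stac* was lower, at 0.326, 0.234 and 0.285 (-1.54 ± 0.23, adjusted p = 2.6e-05). *Pde3a*, at 3.35, 1.21 and 3.80, did not pass (0.62, adjusted p = 0.117). *Fam163a* and *Pdzd2* were thus called higher with *Pax7* both with and without *Meis2*. *Pax7* nuclei with and without *Meis2* were not tested against each other. When all nuclei with *Pax7* were joined, 7 of 8 members were higher, the exception being *Stac* (6.01% of all genes higher, 5.21% lower). With the reference group held to nuclei with *Gata2*, *Gata3* or *Sox14* (407 nuclei), 6 of 8 were higher and *Stac* was lower at -0.97 (5.41% and 3.99% of all genes).

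**Figure D4:**
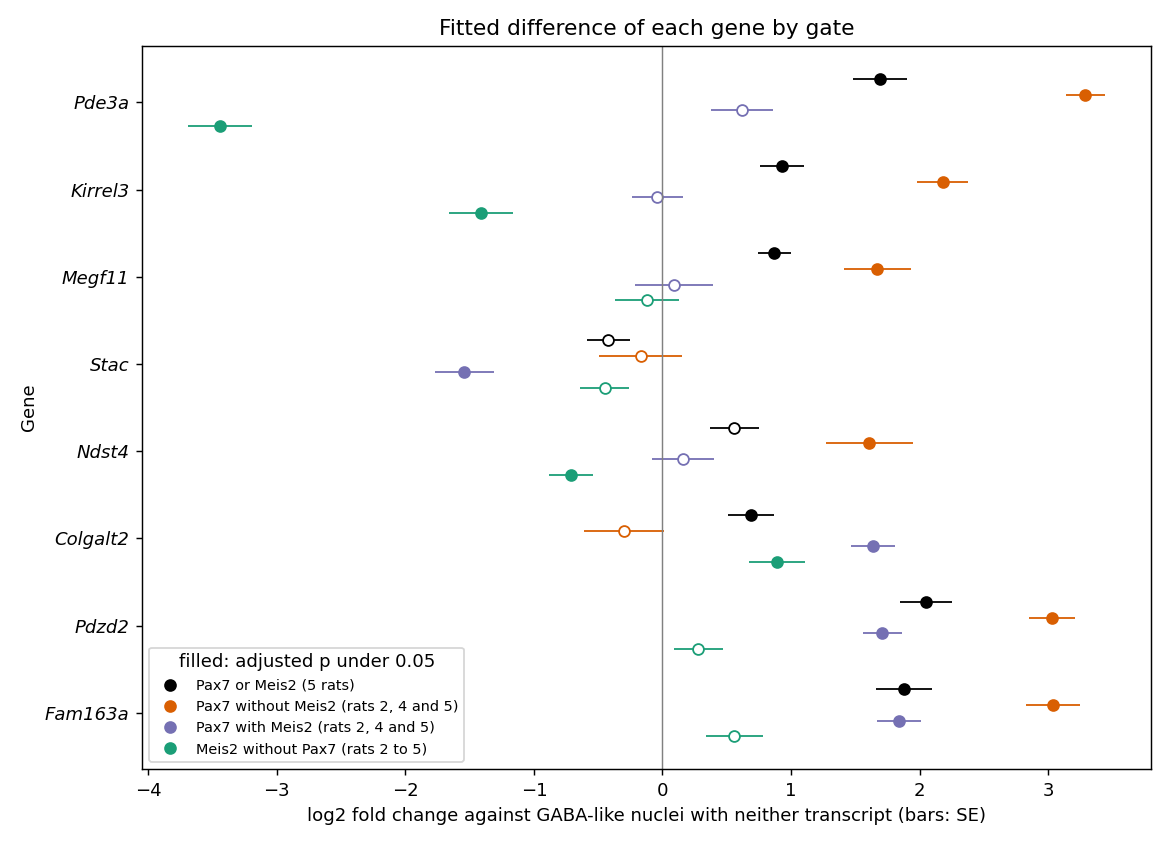
Log2 fold changes of the 8 genes with their standard errors, in GABA-like nuclei with *Pax7* or *Meis2* and in the *Pax7* and *Meis2* subsets, each against GABA-like nuclei with neither, filled points having an adjusted p under 0.05. *Pde3a* runs from -3.44 with *Meis2* without *Pax7* to 3.29 with *Pax7* without *Meis2*. *Stac* lies below 0 in every set plotted and passes the threshold only with both factors.

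Relatives of the members, listed by gene family or pathway, were tested in the same comparison of positive with reference nuclei. Of 59 listed, 57 were in the files and 50 were tested, of which 9 were higher and 3 lower, with a median log2 fold change of -0.01, beside 4.48% and 3.56% of all genes. Among the phosphodiesterases other than *Pde3a*, 3 of 15 were higher and 0 lower. *Pde1c*, a calcium and calmodulin dependent phosphodiesterase, was at 5.83 ± 1.04 UMIs per 10000 in positive and 0.827 ± 0.434 in reference nuclei (SD, n = 5, log2 fold change 2.68), and *Pde11a* (1.43) and *Pde1a* (1.34) were higher too. *Pde1c* was among the leading genes of sub-clusters 5 and 19, where *Pde3a* was at 1.49 and 1.30. It was not among those of sub-cluster 6, where *Pde3a* was at 19.8. The positive group joins these kinds of nuclei. Of 17 heparan sulfate genes tested beside *Ndst4*, 5 were higher and 3 lower. *Hs3st1* (1.35) and *Hs6st3* (-0.71) encode sulfotransferases, *Sulf2* (1.11) and *Sulf1* (-3.25) sulfatases that trim the finished chains, *Ndst3* (0.95) is a relative of *Ndst4* with the same activity, and *Glce* (-0.86) encodes the epimerase of the pathway. *Sulf1* and *Sulf2* thus moved in opposite directions. *Stac2* was higher (1.22), unlike *Stac*, and was 1 of 3 relatives of *Stac* tested. None of 4 relatives of *Kirrel3*, 3 of *Megf11*, 3 of *Colgalt2*, 4 of *Pdzd2* and 1 of *Fam163a* was called. Of the 12 relatives called, the 10 named were chosen for moving the same way in 5 of 5 rats.

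Over 23 groups of nuclei, namely the neuron sub-clusters given a class and the 5 glial and vascular classes, the genes most like each member were found by Pearson correlation of log2 levels among 11477 genes. The groups share the same 5 libraries and differ in depth, so the values are descriptions. *Pdzd2* was most like *AABR07026032.3* (0.842), *Pkdcc* (0.805) and *Pax7* itself (0.775), and *Fam163a* most like *Entpd3* (0.792), *Sphkap* (0.778) and *AABR07026032.3* (0.756). *Pde3a* was nearest to *Zbtb10* (0.792), *Pdk3* (0.764) and *Impa1* (0.702), and its correlation with *Pax7* was 0.597. For *Ndst4* the leading genes were *Zmat4* (0.847), *Lrrfip2* (0.827) and *AABR07016841.1* (0.819), and for *Stac* they were *Trub1* (0.827), *Galt* (0.819) and *Ccdc73* (0.805). *Megf11* was nearest to *Usp24* (0.798), *Pcmtd2* (0.786) and *Gask1b* (0.760), *Colgalt2* to *Bche* (0.741), *Ptn* (0.735) and *Frmd6* (0.723), and *Kirrel3* to *Anp32e* (0.724), *Urb1* (0.705) and *AABR07010777.1* (0.701). *Pax7* correlated with *Fam163a* at 0.740, *Kirrel3* at 0.489 and *Ndst4* at 0.437, and its correlation with *Megf11* (0.148), *Stac* (-0.0148) and *Colgalt2* (-0.0504) was weak. *Meis2* correlated with the members at -0.133 (*Kirrel3*) to 0.310 (*Colgalt2*), with *Pde3a* at -0.0470 and *Pdzd2* at 0.0741. *Pax3* correlated with *Pdzd2* at 0.753, *Pde3a* at 0.614 and *Fam163a* at 0.592.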

How the data were processed

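The authors made UMI counts with the 10x Genomics Cell Ranger pipeline (version 8.0.1 in the submitters' processing notes; the genome build is not given in the sources used here) and deposited them as raw counts per gene and barcode, before any filter, correction or doublet removal. Here barcodes with at least 1000 UMIs, 201 to 4999 genes and under 5% mitochondrial UMIs were kept. Scrublet (scanpy 1.11.5) scored doublets. Its own threshold marked 8 nuclei, which is too few to have worked, so the highest scores at 0.8% per 1000 nuclei of a library were left out. Of 22034 barcode strings, 50 (0.227%) occurred in more than 1 library. Nuclei were clustered with Leiden (leidenalg 0.10.2; 2000 variable genes, 30 components, 20 neighbours, resolution 1.0), without the 8 members and *Glp1r*, neurons were clustered again, and clusters were named from listed markers. Sub-clusters of neurons with glial or vascular genes were left out.

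Levels are UMIs per 10000 UMIs of a rat's pooled nuclei. Sums of at least 10 nuclei per rat and group were tested with edgeR 4.0.16 (R 4.3.3; TMM, filterByExpr, quasi-likelihood F test, Benjamini-Hochberg over all genes tested, threshold 0.05), with the standard error (SE) of a log2 fold change taken as its size over the square root of F. The rat was a block because both groups came from the same animals; deviations of a rat's 2 sums from the group means correlated at 0.155, 0.614, 0.639, 0.51 and 0.52 in rats 1 to 5, over 10342 genes. The scripts were tested on simulated data. Class orders used exact two-sided sign-flip permutation tests. The free RNA profile came from barcodes under 100 UMIs.

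The members, the lists of markers and relatives and the comparisons were chosen with earlier results of these data known. Named genes were the 8 members, the markers, relatives called and moving the same way in every rat (at most 10, by size of fold change), and the 3 genes most correlated with each member. Alternatives were DESeq2 1.42.0, its size factors, no filter on low counts, no rat block, each rat left out, *Glp1r* nuclei kept, doublets kept, nuclei of at least 2000 UMIs, thinning to 1000 UMIs, subtraction of free RNA, neurons typed by their own transcripts, a *Gata2*, *Gata3* or *Sox14* reference, and other splits by *Pax7* and *Meis2*, of which *Pax7* without *Meis2*, against neither factor and against *Meis2* without *Pax7*, was added after the data were seen.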

Additional observations from a re-analysis of the deposited data

Results flagged for a closer look

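Among 95 groups of 4 or 5 rats, 2 held a rat far from the others by Dixon's criterion, which by chance happens in about 1 in 20 groups. *Pdzd2* in astrocytes was at 0.635 UMIs per 10000 in rat 3 and at 0.163 to 0.289 in the others. *Colgalt2* in GABA-like nuclei with neither *Pax7* nor *Meis2* was at 1.08 in rat 1 and at 0.399 to 0.571 in the others.

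Members were also seen in sub-clusters of neurons that no class used, at pooled levels above the highest class mean over rats. The highest pooled level of a class is given in brackets, being the like measure. Sub-cluster 20 (66 nuclei, 43 and 22 of them in rats 2 and 3) was left out because it carried vascular genes, and *Pax3* and *Pax7* were among its leading genes. There *Ndst4* was at 10.4 UMIs per 10000 (2.43), *Pdzd2* at 10.6 (5.09), *Pde3a* at 9.09 (3.77) and *Fam163a* at 3.05 (1.53). *Colgalt2* was at 4.35 (3.07), *Stac* at 2.28 (0.705) and *Kirrel3* at 1.64 (1.04). Sub-cluster 15 (139 nuclei, rats 2 and 3), left out for oligodendrocyte genes and led by the vesicular glutamate transporter *Slc17a7*, had *Ndst4* at 7.25 (2.43). *Fam163a* was at 1.22 there, above the GABA-like mean over rats of 1.20 but below the pooled GABA-like level of 1.53. Sub-cluster 22 (38 nuclei) had *Stac* at 0.737 (0.705).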

How the results depend on the processing

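Of 744 member fold changes under 21 alternatives, 669 kept their direction and their side of the threshold, 42 lost a call, 16 gained one and 17 changed sign, 6 of these outside the *Pax7*, *Meis2* comparison. In that comparison, with 6 members higher and 0 lower, DESeq2 called 3, the fit without the replicate block 1 and thinning 1, and leaving out 1 rat gave 5 to 7 higher and 0 to 1 lower. Nuclei with *Meis2* without *Pax7* gave 1 higher and 3 lower, those with both 3 and 1, the *Gata2*, *Gata3* or *Sox14* reference 1 lower, and *Pax7* against *Meis2* 1 lower. Signs turned with *Meis2* without *Pax7* for *Pde3a* (-3.44), *Kirrel3* (-1.41), *Megf11* (-0.12) and *Ndst4* (-0.71), with both factors for *Kirrel3* (-0.04), when thinned for *Kirrel3* (-0.13), *Megf11* (-0.33) and *Ndst4* (-0.49), with *Pax7* without *Meis2* for *Colgalt2* (-0.30), and for *Pax7* against *Meis2* for *Colgalt2* (-1.35) and *Stac* (0.23). Splits and thinning use other nuclei by construction. For DESeq2 and the block the cause was not tested.

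GABA-like against dopaminergic-like neurons gave 8 higher, 4 without the replicate block and 7 to 8 without 1 rat. Against glutamatergic-like neurons, leaving out 1 rat gave 5 to 6, and signs turned for *Megf11* without rat 4 (-0.15, up to 1.03 without others), *Ndst4* with neurons typed by their own transcripts (-0.17) and *Colgalt2* without rat 1 (-0.06, up to 0.35). Neurons against OPCs gave 4 lower, 2 with DESeq2 and 2 without the block, and 3 to 4 in each direction without 1 rat; the cause was not tested. Without 1 rat, neurons against oligodendrocytes gave 5 higher and 2 to 3 lower, and against astrocytes 6 to 7 higher and 1 lower. *Colgalt2* against astrocytes turned without the block (-0.06), without rat 2 (-0.26, up to 0.51 without others) and with doublets kept (-0.02). *Stac* in glia was limited by depth, and all members in *Glp1r* nuclei by their number, 48.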
